A study of Mus musculus with 8 samples.

Results

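The nuclear-encoded subunits of the respiratory chain and ATP synthase were followed across AV cushions and ventricles of mutant and wild type mouse embryos. The members were the gene symbols that follow the naming pattern of these subunits (Nduf a, b, c, s or v with a number, Cox4 to Cox8, Uqcr, Atp5 and Sdha to Sdhd), with 1 row kept per symbol. 82 of the 22869 symbols in the count table fitted, of which 35 belong to complex I, 4 to complex II, 8 to complex III, 18 to complex IV and 16 to complex V. The last of the 82, Cox4nb, is annotated as Emc8, a gene of a membrane protein complex of the endoplasmic reticulum that lies beside Cox4i1. It fits the pattern by name and is no subunit. Atp5s is counted with complex V as a coupling factor gene and is included where subunit genes are spoken of. Expression was measured by total RNA sequencing of hearts at E12.5 from C57BL/6 mice, with 2 libraries in each of 4 groups. The groups were mutant AV cushion, wild type AV cushion, mutant ventricle and wild type ventricle. The mutants carry the genotype label NfatC1+/-; KLF2fl/fl in both tissues, and the labels do not say whether +/- marks the loss of an Nfatc1 copy or an allele that carries a recombinase. The controls carry the label wild type. The design text sets the mutants beside KLF2 fl/fl mice instead, so the controls may carry the floxed alleles too. The labels do not state the cells in which Klf2 was deleted, the number of embryos behind a library or the meaning of the replicate numbers.

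The respiratory chain sits in the inner mitochondrial membrane. Complexes I and II pass electrons from NADH and succinate to ubiquinone, complex III passes them on to cytochrome c, and complex IV, cytochrome c oxidase, hands them to oxygen. Complexes I, III and IV pump protons, and complex V, ATP synthase, uses the proton gradient to make ATP. Most subunits are encoded in the nucleus and a few of the core subunits by mitochondrial DNA. Heart muscle depends on this pathway for most of its ATP after birth, and several complex IV subunits have a second isoform in striated muscle. AV cushions are the swellings from which heart valves form. They hold mesenchymal cells in a loose matrix under a layer of endocardium, while the ventricle wall is largely cardiomyocytes.

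The library totals over 1 row per symbol were between 18955733 and 26579215 counts, so that 1 CPM (counts over the scaled library size) stood for at least 18.7 reads. Klf2, the targeted gene, had 1.96 and 0.651 CPM in mutant cushions, against 17.3 and 12.9 CPM in wild type cushions and 0.735 and 0.625 CPM in mutant ventricles, against 11.7 and 9.19 CPM in wild type ventricles. All mutant libraries were below all wild type libraries of the same tissue. The log2 fold change of mutant over wild type was -3.54 ± 0.42 (adjusted p = 0.145, or 2.86e-05 with the block) in cushions and -3.93 ± 0.45 (adjusted p = 0.269, or 4.56e-05 with the block) in ventricles, where the ± is a standard error, p comes from edgeR's quasi-likelihood test adjusted over 14940 tested symbols, and the block is the same fit with the replicate number added as a term. Cushion mesenchyme markers summed to between 10285 and 21744 CPM in the 4 cushion libraries, against 2347 to 5842 CPM in the 4 ventricle libraries, and 20 cardiomyocyte markers to between 37492 and 54135 CPM, against 56638 to 114864 CPM. No gene of either marker list was at 0 in any library, so cardiomyocyte RNA was present in every cushion library. On the first principal component of all genes mutant cushion replicate 2, at -22.8, lay away from the remaining cushion libraries, at -54.9 to -46.3.

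Subunit genes took up a sizeable part of the RNA. The 82 members held 1.36% and 1.96% of counts in mutant cushions, 1.42% and 1.78% in wild type cushions, 2.17% and 2.90% in mutant ventricles and 2.07% and 2.69% in wild type ventricles. 80 of the 82 passed the filter on low counts. Cox8c, known as a testis isoform of a complex IV subunit, had 0 counts in all 8 libraries, and Cox7b2, the second isoform of subunit VIIb, had between 0 and 6 counts per library. Both belong to complex IV, and neither was tested. Among the tested members, levels per kilobase of transcript spanned from 2.75 CPM per kb for Atp5g2 to 2043 CPM per kb for Atp5b as means over the 8 libraries, with a median of 138.7 CPM per kb, and 49 of them were above 100 CPM per kb. In complex V the highest levels per kilobase were those of Atp5b, of Atp5a1 at 1099 CPM per kb and of Atp5g3 at 865 CPM per kb. These encode the 2 subunits that form the catalytic head and a subunit of the rotating membrane ring. The highest of complex III was Uqcrh, the hinge protein gene, at 869.9 CPM per kb, followed by Uqcrc2 at 428 and Uqcrb at 286 CPM per kb. In complex IV, Cox6b1 reached 642, Ndufa4 588 and Cox6c 531 CPM per kb. Ndufa4 is named for complex I, but its product is a complex IV subunit. Complex I was led by Ndufb8, Ndufb9 and Ndufs1 with 389.9, 307 and 275 CPM per kb, and complex II by Sdhd, Sdhb and Sdha with 268, 231 and 220.5 CPM per kb. Low levels need care where copies exist: of the 50-base words in the Atp5g2 transcript, 100% also occurred in transcripts of other genes, and in Atp5l, at 5.01 CPM per kb, 84.8% did. Cox7c at 13.4 CPM per kb shared 53.0% of its words. Reads of these genes may have been lost or divided in counting, so their levels are uncertain.

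Subunit RNA was lower in cushions than in ventricles across all 5 complexes, in both genotypes. In mutants, 79 of the 80 tested members were lower in cushions and 1 was higher, and the median log2 fold change of cushion over ventricle was -0.65, a cushion level at 63.6% of the ventricle level. In wild type, 73 were lower and 7 higher, with a median of -0.62 and a level of 65.1%. Over all 14940 tested symbols the median was 0.01 in both comparisons. The lower and upper quartiles of the members were -0.75 and -0.56 in mutants and -0.83 and -0.36 in wild type. Values summed over the 82 members were 13581 and 18911 CPM in mutant cushions, against 23522 and 28196 CPM in mutant ventricles, and 14117 and 16215 CPM in wild type cushions, against 22604 and 26876 CPM in wild type ventricles. The highest cushion library stayed below the lowest ventricle library. In bulk tissue, fewer cells of a type and less RNA per cell cannot be told apart.

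Between mutant tissues 16 members were called at an adjusted p of 0.05, where 9.42% of all tested symbols were called, and 15 of the 16 were lower in cushions, against 3.26% of all symbols called lower. With the block 70 were called, against 23.9% of all symbols, of which 69 were lower, against 10.5%. Between wild type tissues 35 members were called, against 23.1% of all symbols, of which 34 were lower, against 10.6%. With the block 58 were called, against 41.4%, of which 57 were lower, against 20.1%. All 4 cushion libraries were below all 4 ventricle libraries for 53 of the 80 members (66.25%) and above them for 1, while 13.2% of all tested symbols lay fully below. 8 members were called lower in both genotypes, 53.3% of those called in mutants and 23.5% of those called in wild type, and with the block 53 were, 76.8% and 93.0%. Over all tested symbols the shares called lower in both were 72.3% of those called in mutants and 22.1% of those called in wild type, or 69.8% and 36.3% with the block. The 8 were Atp5h, Cox5b, Cox8b, Ndufa12, Ndufs3, Sdha, Uqcrfs1 and Uqcrq. The 1 member called higher was Cox4i2 in both. The count in mutants hung on single libraries. Without mutant cushion replicate 1 no member was called there by edgeR, and without mutant cushion replicate 2 it was 35, with a median of -0.91. It was 1 without mutant ventricle replicate 2, 10 without wild type cushion replicate 2, and 5 when either wild type ventricle library was left out. The wild type libraries enter this comparison only through the spread and the scaling that all groups share in the fit. The count in wild type cushions against ventricles became 9 when cushion replicate 1 of that genotype was left out, 13 when its replicate 2 was, and 7 without its ventricle replicate 2. Within replicate 1 alone the median of the members was -0.72 in mutants and -0.61 in wild type, and within replicate 2 it was -0.57 and -0.63.

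**Figure D1:**
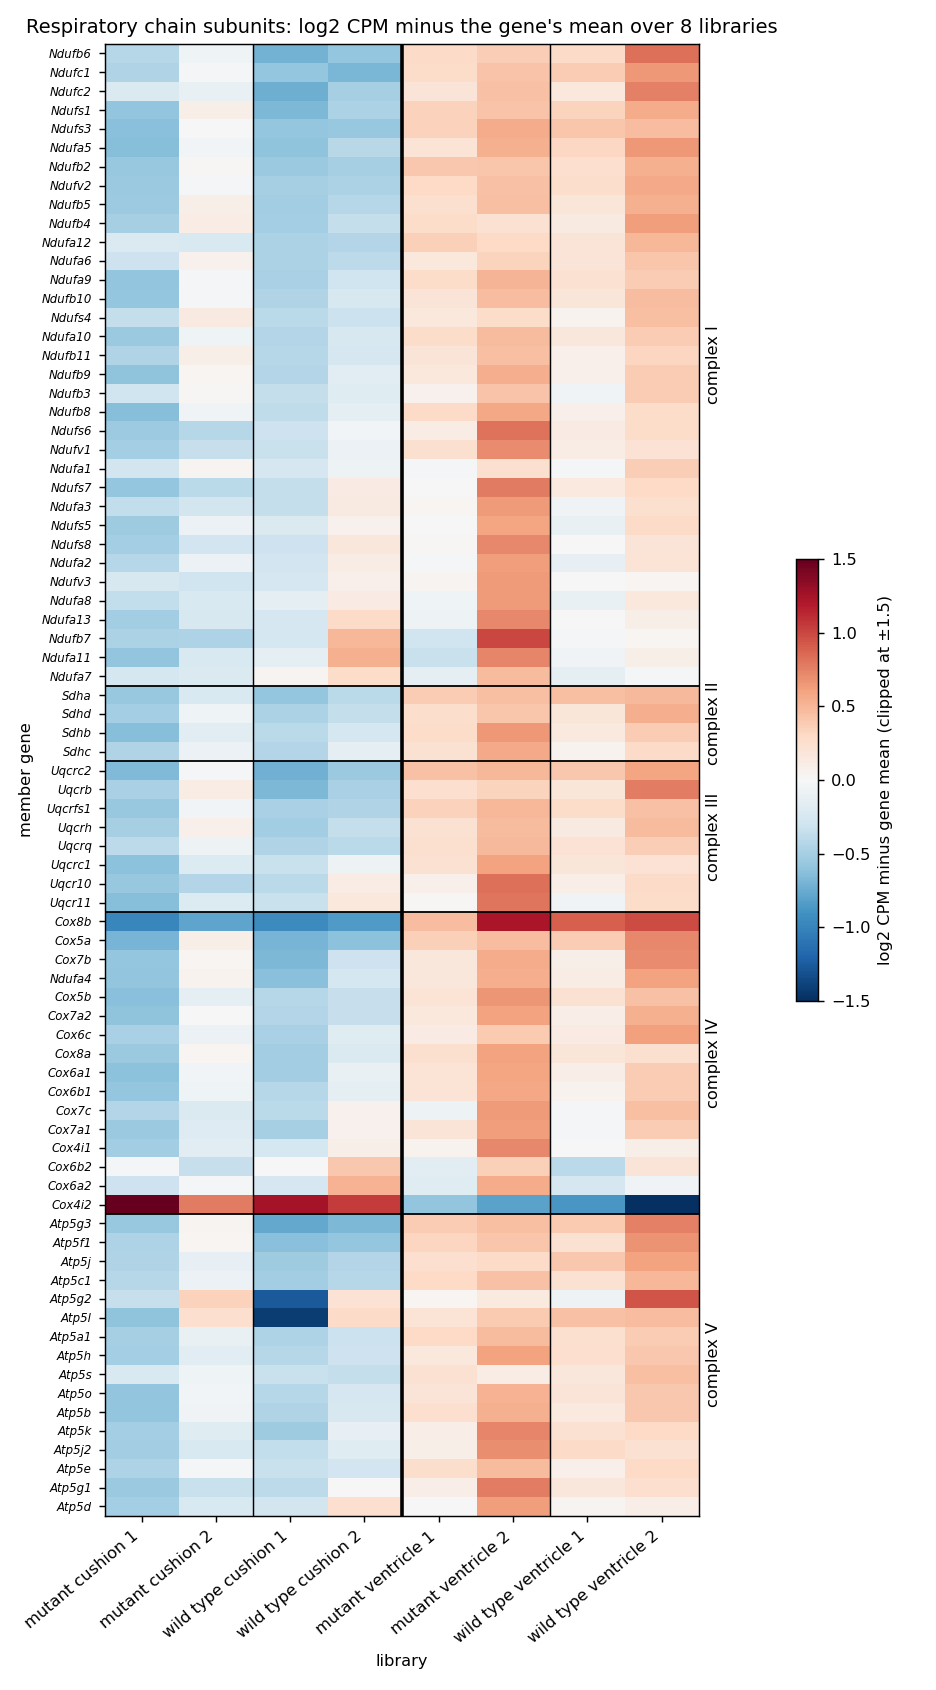
Heat map of 78 tested subunit genes in the 8 libraries, with genes in rows grouped by complex and, within a complex, ordered by the wild type tissue difference. Color gives log2 CPM minus the gene's mean over the 8 libraries. The 4 cushion libraries on the left are mostly blue and the 4 ventricle libraries on the right mostly red, with mutant cushion replicate 2 paler than mutant cushion replicate 1, and Cox4i2 shows the opposite pattern.

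**Figure D2:**
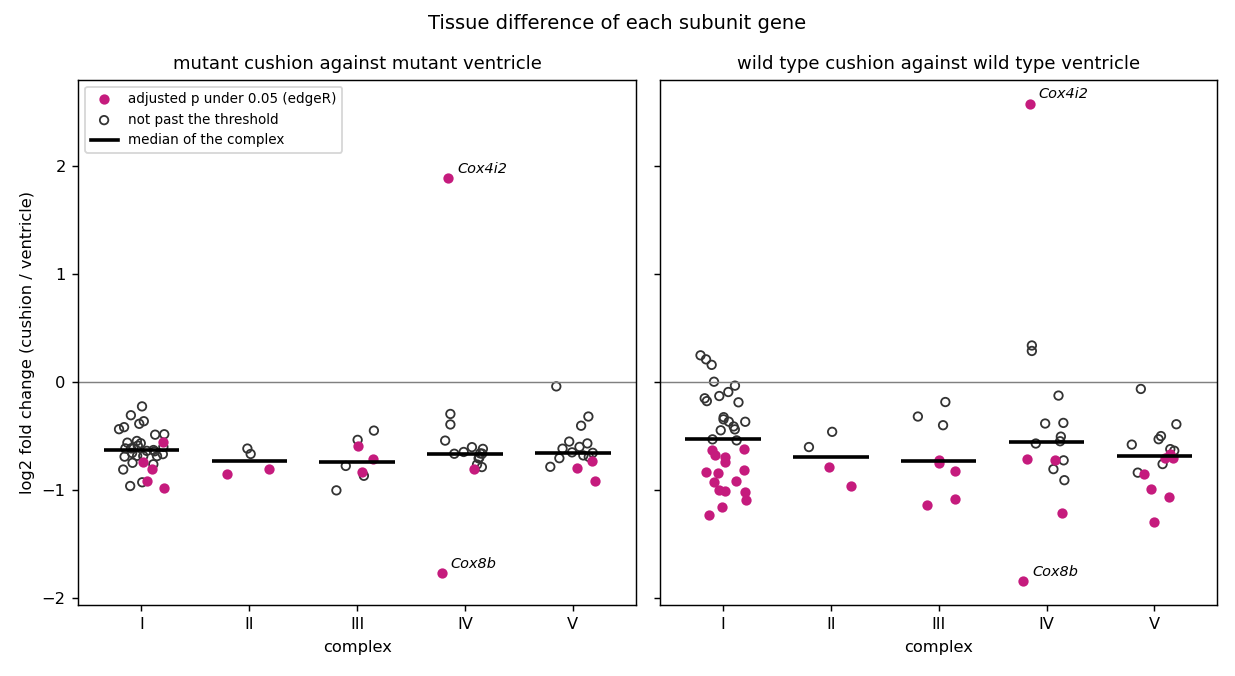
Log2 fold change of cushion over ventricle for each of the 79 tested subunit genes, by complex, in mutants (left) and in wild type (right). Filled points passed an adjusted p of 0.05 in edgeR and bars are medians of a complex, which lie between -0.74 and -0.63 in mutants and between -0.73 and -0.53 in wild type.

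Complex I, which oxidises NADH, had all 35 members lower in mutant cushions and 31 lower in wild type cushions, and the median log2 fold changes were -0.63 and -0.53. 5 of them were called lower in mutants and 16 in wild type, or 31 and 23 with the block. Over all tested symbols 3.26% were called lower in mutants and 10.6% in wild type, or 10.5% and 20.1% with the block. The counts of the other complexes below stand against the same shares. The nuclear-encoded core subunits of complex I include those that carry the flavin and the iron-sulfur clusters of the arm outside the membrane. Ndufv1, whose product binds NADH, had 136 and 151 CPM in mutant cushions, against 228 and 315 CPM in mutant ventricles, and 153 and 182 CPM in wild type cushions, against 208 and 223 CPM in wild type ventricles. The cushion libraries were below the ventricle libraries in both genotypes. Its log2 fold change was -0.92 ± 0.18 (adjusted p = 0.0168) in mutants and -0.37 ± 0.18 (adjusted p = 0.165, or 0.0214 with the block) in wild type. Ndufs3, another core subunit gene, had 25.6 and 39.6 CPM in mutant cushions, against 50.4 and 58.4 CPM in mutant ventricles, and 26.5 and 26.7 CPM in wild type cushions, against 52.8 and 54.4 CPM in wild type ventricles, a difference of -0.74 ± 0.20 (adjusted p = 0.0498) in mutants and -1.01 ± 0.20 (adjusted p = 0.00958) in wild type. Further core subunit genes gave log2 fold changes of -0.60 in mutants and -1.02 in wild type for Ndufs1, -0.64 in mutants and -0.91 in wild type for Ndufv2, -0.93 in mutants and -0.32 in wild type for Ndufs7 and -0.81 in mutants and -0.15 in wild type for Ndufs8. Of these 4, Ndufs1 and Ndufv2 were called in wild type (adjusted p = 0.0145 and 0.0129). In mutants none of the 4 passed without the block, and all 4 were called lower with it.

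Among the accessory subunits of complex I, which surround the core, the smallest p-values in wild type belonged to Ndufc1 and Ndufb6, both of the membrane arm. Ndufc1 had 41.2 and 55.7 CPM in mutant cushions, against 67.95 and 75.7 CPM in mutant ventricles, and 37.6 and 34.9 CPM in wild type cushions, against 73.6 and 88.3 CPM in wild type ventricles. Every cushion library was below every ventricle library. Cushion over ventricle, this was a log2 fold change of -0.57 ± 0.17 (adjusted p = 0.075, or 0.00434 with the block) in mutants and -1.16 ± 0.17 (adjusted p = 0.00335) in wild type. Ndufb6 had 56.6 and 72.7 CPM in mutant cushions, against 92.8 and 98.1 CPM in mutant ventricles, and 46.2 and 50.8 CPM in wild type cushions, against 92.7 and 135 CPM in wild type ventricles, again without overlap. Its log2 fold change was -0.56 ± 0.19 (adjusted p = 0.112, or 0.00346 with the block) in mutants and -1.23 ± 0.20 (adjusted p = 0.00428) in wild type. Over 39.0% of its transcript Ndufb6 overlaps Smim27 on the opposite strand, and the strand setting of the counting is not known. Ndufs6, an accessory subunit gene whose product is needed late in the assembly of the complex, had 25.01 and 27.3 CPM in mutant cushions, against 39.4 and 64.1 CPM in mutant ventricles, and 29.6 and 35.7 CPM in wild type cushions, against 39.8 and 44.5 CPM in wild type ventricles, and was called lower in mutants, with -0.98 ± 0.22 (adjusted p = 0.0301) in mutants and -0.37 ± 0.22 (adjusted p = 0.258) in wild type. The highly expressed Ndufb8 and Ndufb9 had log2 fold changes of -0.76 ± 0.21 (adjusted p = 0.0561, or 3.75e-04 with the block) in mutants and -0.44 ± 0.21 (adjusted p = 0.157, or 0.0109 with the block) in wild type for Ndufb8 and of -0.61 ± 0.24 (adjusted p = 0.149, or 0.00145 with the block) in mutants and -0.53 ± 0.24 (adjusted p = 0.136, or 0.00308 with the block) in wild type for Ndufb9.

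4 accessory subunit genes of complex I were not lower in wild type cushions. Ndufa7 had 40.4 and 41.5 CPM in mutant cushions, against 43.97 and 66.8 CPM in mutant ventricles, and 49.6 and 58.5 CPM in wild type cushions, against 43.5 and 47.6 CPM in wild type ventricles. The cushion libraries were below the ventricle libraries in mutants and above them in wild type. The tissue difference was -0.44 ± 0.20 (adjusted p = 0.207, or 0.0383 with the block) in mutants and 0.25 ± 0.20 (adjusted p = 0.382) in wild type. Ndufa11 had -0.69 ± 0.37 (adjusted p = 0.309, or 0.0293 with the block) in mutants and 0.21 ± 0.37 (adjusted p = 0.714) in wild type, Ndufb7 had -0.96 in mutants and 0.16 in wild type, and Ndufa13 had -0.75 in mutants and 0.00 in wild type. None of the 4 passed in either genotype in edgeR, and all 4 were below 0 in mutants. Without wild type cushion replicate 2 the wild type value of Ndufa11 was -0.17. The transcript GC content was 55.3% for Ndufa7, 58.2% for Ndufa11, 59.7% for Ndufb7 and 60.4% for Ndufa13. All 7 members that were not lower in wild type cushions were among the 40 members with a GC content above 52.01%. How the tissue difference ran with GC content is given below.

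Complex II, succinate dehydrogenase, is the enzyme shared by the chain and the tricarboxylic acid cycle, and all of its 4 subunits are encoded in the nucleus. All 4 were lower in cushions in both genotypes, with no overlap of the 4 cushion and 4 ventricle libraries in any of them. Sdha, the flavoprotein that oxidises succinate, had 411 and 521 CPM in mutant cushions, against 791 and 832 CPM in mutant ventricles, and 409 and 460.3 CPM in wild type cushions, against 835 and 855 CPM in wild type ventricles. It was called lower in both genotypes, with a log2 fold change of -0.80 ± 0.16 (adjusted p = 0.0177) in mutants and -0.96 ± 0.16 (adjusted p = 0.00498) in wild type. Sdhb, the iron-sulfur subunit, had -0.85 ± 0.20 (adjusted p = 0.0331) in mutants and -0.60 ± 0.20 (adjusted p = 0.059, or 0.00132 with the block) in wild type. The membrane anchor genes had -0.67 ± 0.19 (adjusted p = 0.0631, or 4.60e-04 with the block) in mutants and -0.46 ± 0.19 (adjusted p = 0.11, or 0.00387 with the block) in wild type for Sdhc and -0.62 ± 0.19 (adjusted p = 0.0798, or 0.00176 with the block) in mutants and -0.79 ± 0.19 (adjusted p = 0.0209) in wild type for Sdhd.

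Complex III, the cytochrome bc1 complex, had all 8 members lower in both genotypes, with medians of -0.74 in mutants and -0.73 in wild type. 3 were called in mutants and 5 in wild type, or 8 and 6 with the block. Uqcrfs1, the Rieske iron-sulfur protein that takes electrons from ubiquinol, had 183 and 263 CPM in mutant cushions, against 344 and 384 CPM in mutant ventricles, and 194 and 198 CPM in wild type cushions, against 329 and 367 CPM in wild type ventricles. The 2 tissues did not overlap in either genotype. This came to a log2 fold change of -0.71 ± 0.18 (adjusted p = 0.0444) in mutants and -0.83 ± 0.18 (adjusted p = 0.0149) in wild type. The core protein genes Uqcrc1 and Uqcrc2 differed in which genotype passed, with -0.83 ± 0.19 (adjusted p = 0.0304) in mutants and -0.40 ± 0.19 (adjusted p = 0.155, or 0.0167 with the block) in wild type for Uqcrc1 and -0.78 ± 0.21 (adjusted p = 0.0546, or 0.00115 with the block) in mutants and -1.14 ± 0.21 (adjusted p = 0.0083) in wild type for Uqcrc2. Passing in 1 genotype is no test of a difference between them, and the test of that difference, the interaction, called no member. Uqcrh had -0.53 ± 0.21 (adjusted p = 0.161, or 0.00563 with the block) in mutants and -0.75 ± 0.21 (adjusted p = 0.038) in wild type and the ubiquinone-binding protein gene Uqcrb had -0.45 ± 0.24 (adjusted p = 0.291, or 0.019 with the block) in mutants and -1.08 ± 0.24 (adjusted p = 0.0166) in wild type.

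In complex IV, 15 of the 16 tested members were lower in mutant cushions and 13 in wild type cushions, with medians of -0.66 and -0.56. 2 were called lower and 1 higher in mutants, and 4 lower and 1 higher in wild type, or 13 and 1, and 11 and 1, with the block. Its catalytic core is encoded by mitochondrial DNA and was not analysed here, since 0 of 26 mitochondrially encoded genes looked for were found in the table. Cox5a, which has no second isoform, had 158 and 273 CPM in mutant cushions, against 328 and 353 CPM in mutant ventricles, and 158 and 168 CPM in wild type cushions, against 335 and 423 CPM in wild type ventricles. Mutant cushion replicate 2 lay nearer to the ventricles than the other cushion libraries. On the log2 scale cushions differed by -0.66 ± 0.24 (adjusted p = 0.13, or 0.005 with the block) in mutants and -1.22 ± 0.24 (adjusted p = 0.0109) in wild type. The Cox5a transcript overlaps Gm26631 on the opposite strand over 41.7% of its length, so its counts too depend on the unknown strand setting. Cox5b, which binds zinc, had -0.81 ± 0.20 (adjusted p = 0.0429) in mutants and -0.73 ± 0.20 (adjusted p = 0.0352) in wild type, and Cox6c had -0.54 ± 0.22 (adjusted p = 0.163, or 0.00255 with the block) in mutants and -0.71 ± 0.22 (adjusted p = 0.046) in wild type. Cox6b1, the most abundant complex IV member per kilobase, had -0.70 ± 0.22 (adjusted p = 0.0887, or 5.00e-04 with the block) in mutants and -0.50 ± 0.22 (adjusted p = 0.13, or 0.00357 with the block) in wild type. Ndufa4 had -0.60 ± 0.27 (adjusted p = 0.204, or 0.00152 with the block) in mutants and -0.81 ± 0.27 (adjusted p = 0.0613, or 1.44e-04 with the block) in wild type, Cox7b -0.62 ± 0.28 (adjusted p = 0.223, or 0.00126 with the block) in mutants and -0.91 ± 0.28 (adjusted p = 0.0528, or 5.82e-05 with the block) in wild type, and Cox7c, whose counts are uncertain, -0.65 ± 0.30 (adjusted p = 0.222, or 0.0329 with the block) in mutants and -0.38 ± 0.30 (adjusted p = 0.377) in wild type.

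Isoform pairs of complex IV gave the largest differences in either direction. Cox8b, the heart and skeletal muscle form of subunit VIII, had 2.35 and 2.69 CPM in mutant cushions, against 6.42 and 10.9 CPM in mutant ventricles, and 2.39 and 2.57 CPM in wild type cushions, against 8.66 and 9.19 CPM in wild type ventricles. Both ventricle groups were above both cushion groups, and these levels rest on 48 to 65 reads in a cushion library and 157 to 244 in a ventricle library. Cushion over ventricle, this was a log2 fold change of -1.77 ± 0.28 (adjusted p = 0.00863) in mutants and -1.84 ± 0.29 (adjusted p = 0.00394) in wild type, a cushion level at 29.3% of the ventricle level in mutants and 27.9% in wild type. The call in mutants ended without mutant cushion replicate 1 (adjusted p = 0.0748) and held in the other 17 alternatives. Its partner Cox8a, the form found in most tissues, had 124 and 186 CPM in mutant cushions, against 215 and 276 CPM in mutant ventricles, and 127 and 156 CPM in wild type cushions, against 206 and 215 CPM in wild type ventricles, a difference of -0.66 ± 0.21 (adjusted p = 0.0925, or 0.00133 with the block) in mutants and -0.57 ± 0.21 (adjusted p = 0.0866, or 0.00244 with the block) in wild type. Cox8b had the larger fold difference of the pair, although its level per kilobase was low, at 15.7 CPM per kb against 342 for Cox8a.

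Cox4i2 ran the other way. This gene encodes a second form of subunit IV, known from lung and from cells at low oxygen. It had 10.99 and 6.56 CPM in mutant cushions, against 2.53 and 2.19 CPM in mutant ventricles, and 9.06 and 7.87 CPM in wild type cushions, against 2.08 and 0.739 CPM in wild type ventricles. All cushion libraries were above all ventricle libraries, with 151 to 224 reads in a cushion library and 14 to 62 in a ventricle library. The tissue difference was 1.89 ± 0.41 (adjusted p = 0.026) in mutants and 2.58 ± 0.44 (adjusted p = 0.00591) in wild type, 3.70-fold and 5.98-fold higher in cushions. The call in mutants ended in 3 of the 8 fits that leave out a library, those without mutant cushion replicate 1 (adjusted p = 0.17), mutant ventricle replicate 1 (adjusted p = 0.0887) and mutant ventricle replicate 2 (adjusted p = 0.144). The call in wild type held in all 18 alternatives. Cox4i1, the form found in most tissues, had 241 and 307 CPM in mutant cushions, against 359.5 and 570.5 CPM in mutant ventricles, and 287 and 369 CPM in wild type cushions, against 346 and 369 CPM in wild type ventricles, with -0.76 ± 0.24 (adjusted p = 0.0831, or 0.00109 with the block) in mutants and -0.12 ± 0.24 (adjusted p = 0.734) in wild type. Part of Cox4i1 (17.99% of its transcript) overlaps Emc8 on the opposite strand, and the strand setting of the counting is not known. Cox4nb, which is Emc8 itself, had -0.13 ± 0.12 (adjusted p = 0.579) in mutants and -0.05 ± 0.12 (adjusted p = 0.81) in wild type.

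The other isoform families had smaller differences. Cox6a2, the heart and skeletal muscle form of subunit VIa, had 22.4 and 27.3 CPM in mutant cushions, against 24.6 and 40.8 CPM in mutant ventricles, and 23.3 and 39.8 CPM in wild type cushions, against 23.3 and 26.7 CPM in wild type ventricles. Cushions and ventricles overlapped widely. This came to a log2 fold change of -0.39 ± 0.31 (adjusted p = 0.492) in mutants and 0.34 ± 0.31 (adjusted p = 0.458) in wild type, and its partner Cox6a1 had -0.71 ± 0.24 (adjusted p = 0.106, or 3.16e-04 with the block) in mutants and -0.55 ± 0.24 (adjusted p = 0.128, or 0.00136 with the block) in wild type. Cox7a1, the muscle form of subunit VIIa, had -0.79 ± 0.25 (adjusted p = 0.0916, or 2.33e-04 with the block) in mutants and -0.38 ± 0.25 (adjusted p = 0.301, or 0.0168 with the block) in wild type, and Cox7a2 had -0.66 ± 0.24 (adjusted p = 0.132, or 0.00174 with the block) in mutants and -0.72 ± 0.24 (adjusted p = 0.0634, or 8.06e-04 with the block) in wild type. Cox6b2, known from testis, was at 1.67 and 1.35 CPM in mutant cushions, against 1.51 and 2.19 CPM in mutant ventricles, and 1.69 and 2.26 CPM in wild type cushions, against 1.28 and 1.95 CPM in wild type ventricles, on 24 to 57 reads, with -0.29 ± 0.36 (adjusted p = 0.668) in mutants and 0.29 ± 0.36 (adjusted p = 0.589) in wild type.

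The share of an isoform in its pair sets the 2 forms against each other within a library. On the scale of CPM per kilobase, Cox8b made up 2.82% and 2.17% of Cox8b and Cox8a together in mutant cushions and 2.81% and 2.45% in wild type cushions, against 4.35% and 5.69% in mutant ventricles and 6.05% and 6.14% in wild type ventricles. Each cushion library was below each ventricle library. The mean share was 2.56% ± 0.313 in cushions and 5.56% ± 0.826 in ventricles (SD, n = 4 each). The Cox4i2 share of Cox4i2 and Cox4i1 was 2.97% ± 1.10 in cushions and 0.482% ± 0.229 in ventricles (SD, n = 4 each), without overlap. The Cox6a2 share of its pair was 15.9% ± 2.40 in cushions and 11.04% ± 1.27 in ventricles (SD, n = 4 each). The lowest cushion value, 13.3%, was close to the highest ventricle value, 12.9%. The Cox7a1 share was 17.1% ± 2.66 in cushions and 16.0% ± 0.895 in ventricles (SD, n = 4 each), with overlap. In two-sided exact permutation tests of the 4 cushion against the 4 ventricle libraries, p was 0.0286 for Cox8b, Cox4i2 and Cox6a2, the smallest that 4 against 4 can give, and 0.571 for Cox7a1. Adjusted over the 4 pairs, the exact p was 0.0381 for the first 3 and 0.571 for Cox7a1. Libraries of both genotypes were joined in this test, and it used neither the genotype nor the replicate number when libraries were reshuffled. Reshuffling only within these would allow fewer splits, so its smallest possible p would be larger, and it was not run.

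**Figure D3:**
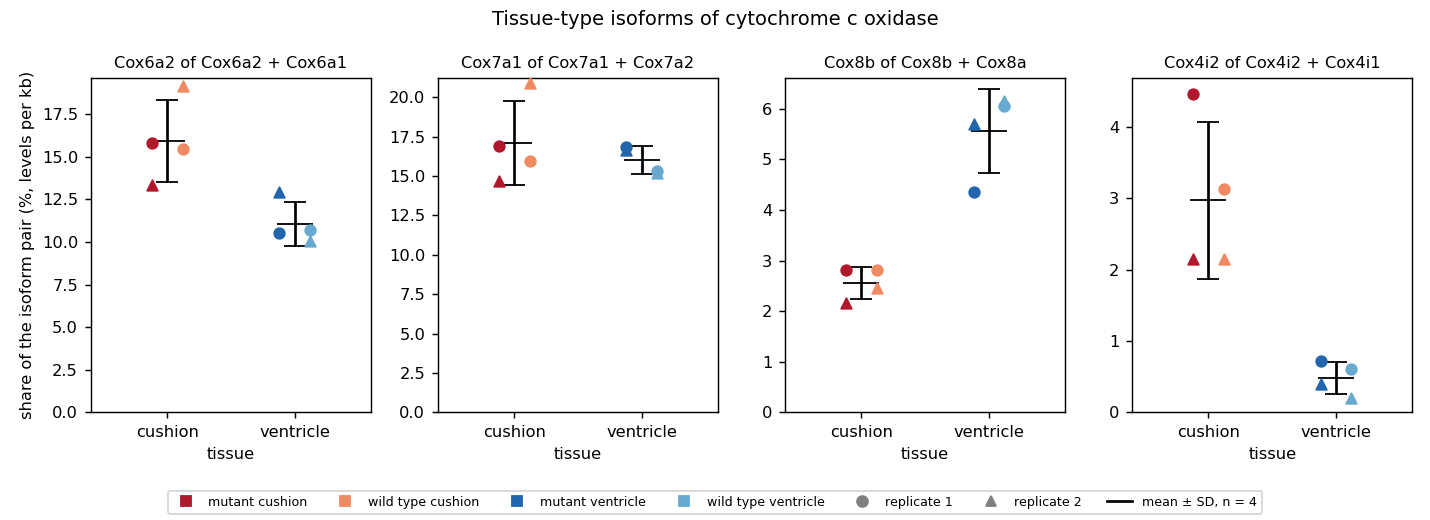
Share of a second isoform in its pair, in percent on the scale of CPM per kilobase, in cushions (left in each panel) and ventricles (right). Points are libraries, colored by group and shaped by replicate number, and black bars are means ± SD of 4 libraries. Cox8b is lower in every cushion library, Cox4i2 and Cox6a2 are higher, and Cox7a1 overlaps.

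Complex V, ATP synthase, had all 16 members lower in both genotypes, with medians of -0.65 in mutants and -0.68 in wild type. 3 were called in mutants and 7 in wild type, or 13 in both with the block. Atp5b, the catalytic beta subunit and the most abundant member per kilobase, had 2521 and 3655 CPM in mutant cushions, against 4492 and 5489 CPM in mutant ventricles, and 2772 and 3204 CPM in wild type cushions, against 4174 and 5014 CPM in wild type ventricles. No cushion library reached the lowest ventricle library. On the log2 scale cushions differed by -0.69 ± 0.23 (adjusted p = 0.0957, or 0.00314 with the block) in mutants and -0.62 ± 0.23 (adjusted p = 0.0792, or 0.00463 with the block) in wild type. Atp5a1, the alpha subunit beside it in the head, had 1854 and 2436 CPM in mutant cushions, against 3222 and 3645 CPM in mutant ventricles, and 1910.4 and 2104 CPM in wild type cushions, against 3116 and 3429 CPM in wild type ventricles, with -0.68 ± 0.19 (adjusted p = 0.0559, or 0.00264 with the block) in mutants and -0.71 ± 0.19 (adjusted p = 0.0282) in wild type. Atp5j, coupling factor 6 of the peripheral stalk, had -0.55 ± 0.15 (adjusted p = 0.0525, or 0.00217 with the block) in mutants and -0.99 ± 0.15 (adjusted p = 0.00366) in wild type. Its transcript overlaps Gabpa on the opposite strand.

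The c ring of ATP synthase is built from a protein that 3 genes encode. Atp5g3 had the highest counts of the 3 as deposited, although copies make those of Atp5g2 uncertain, with 388 and 592 CPM in mutant cushions, against 748 and 789.6 CPM in mutant ventricles, and 339.8 and 361 CPM in wild type cushions, against 754 and 969.8 CPM in wild type ventricles. Mutant cushion replicate 2 was nearest to the ventricles. Cushion over ventricle, this was a log2 fold change of -0.65 ± 0.21 (adjusted p = 0.0969, or 0.0032 with the block) in mutants and -1.30 ± 0.22 (adjusted p = 0.00519) in wild type. Atp5g1 had 29.7 and 34.4 CPM in mutant cushions, against 46.5 and 74.4 CPM in mutant ventricles, and 33.2 and 43.5 CPM in wild type cushions, against 48.9 and 51.7 CPM in wild type ventricles, with -0.91 ± 0.23 (adjusted p = 0.0426) in mutants and -0.39 ± 0.23 (adjusted p = 0.245, or 0.0308 with the block) in wild type. Without the block Atp5g1 thus passed in mutants and Atp5g3 in wild type. This is no test of a difference between the genotypes, and the interaction called neither gene. Atp5g2, whose words all occur in other transcripts, was between 0.470 and 2.16 CPM in all libraries and had -0.04 ± 0.53 (adjusted p = 0.979) in mutants and -0.84 ± 0.54 (adjusted p = 0.285) in wild type.

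Promoter sequences were examined for motifs of factors known to act on these genes. RefSeq windows from 250 bases before to 50 after the start were found for 67 of the 82 members. The NRF1 core GCATGCGC stood in 14.9% of member windows and in 2.80% of 27025 windows of all genes, counting both strands. The YY1 motif AAGATGGC was in 13.4% against 2.88%, the ERR motif AAGGTCA in 11.9% against 4.66% and the ETS motif CCGGAAGT in 7.46% against 1081 of the 27025 windows. 29 of the 67 windows held at least 1 of the 4. Member windows had a median GC content of 57.3%, against 52.7% in all windows. Members with the NRF1 core had a median tissue log2 fold change of -0.70 in mutants and -0.56 in wild type, and members without it -0.66 and -0.65. The 250 bases before the start are shown for the muscle and the general form of subunit VIII and for Atp5k, a complex V membrane subunit with 2 kinds of motif, because these show a window without and with matches. Capitals mark motif matches, 5′ to 3′ in the direction of transcription, in the GRCm38.p6 build.
Cox8b (chr7:140900447-140900696, minus strand): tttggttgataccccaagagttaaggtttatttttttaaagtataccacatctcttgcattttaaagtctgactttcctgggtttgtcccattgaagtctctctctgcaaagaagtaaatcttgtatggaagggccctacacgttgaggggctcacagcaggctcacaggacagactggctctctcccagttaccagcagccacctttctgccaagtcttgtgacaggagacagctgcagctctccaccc
Cox8a (chr19:7217617-7217866, minus strand): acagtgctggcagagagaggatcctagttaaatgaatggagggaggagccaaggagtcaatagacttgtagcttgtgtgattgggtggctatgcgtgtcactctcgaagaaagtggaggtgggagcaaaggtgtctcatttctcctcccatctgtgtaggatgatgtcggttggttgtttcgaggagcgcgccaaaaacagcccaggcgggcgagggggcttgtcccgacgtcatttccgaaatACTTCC
Atp5k (chr5:108434400-108434649, minus strand): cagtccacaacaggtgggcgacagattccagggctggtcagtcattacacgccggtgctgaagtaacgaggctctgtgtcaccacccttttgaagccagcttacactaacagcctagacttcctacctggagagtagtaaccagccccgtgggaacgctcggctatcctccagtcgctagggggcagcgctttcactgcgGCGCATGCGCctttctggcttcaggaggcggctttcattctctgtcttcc
None of the 4 motifs was found in the Cox8b window. In Cox8a the ETS motif lies across the start on the other strand, so that its first 6 letters are shown, and a second match begins at base 32 after the start. The capitals of Atp5k read the same on both strands, so that the NRF1 core was counted on each, at -50 and -48, which overlap. Its second kind of motif, the ERR motif, begins at base 24 after the start, outside the bases shown. A match is a description of the letters and not of binding. Atp5k had a log2 fold change of -0.78 ± 0.23 (adjusted p = 0.0728, or 5.41e-04 with the block) in mutants and -0.58 ± 0.23 (adjusted p = 0.103, or 0.00208 with the block) in wild type.

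Other mitochondrial genes were lower in cushions too. All 18 tested genes of the tricarboxylic acid cycle and of pyruvate oxidation were lower in both genotypes, with medians of -0.69 each. 12 of the 18 were called in mutants and 16 in wild type, or 18 in both with the block. Over all tested symbols the shares called lower were 3.26% in mutants and 10.6% in wild type, or 10.5% and 20.1% with the block. The counts of the other lists and of the markers below stand against the same shares. Mdh2, mitochondrial malate dehydrogenase, had a log2 fold change of -0.77 ± 0.14 (adjusted p = 0.0118) in mutants and -0.52 ± 0.14 (adjusted p = 0.0266) in wild type, and Pdhb, a pyruvate dehydrogenase subunit gene, had -0.84 ± 0.17 (adjusted p = 0.021) in mutants and -1.15 ± 0.17 (adjusted p = 0.00366) in wild type. Of 11 tested carriers and channels that move ADP, ATP, phosphate and other metabolites, 11 were lower in both genotypes, with medians of -0.54 in mutants and -0.70 in wild type, and 3 and 7 were called, or 9 and 9 with the block. Slc25a13, an aspartate and glutamate carrier gene, had -0.84 ± 0.15 (adjusted p = 0.0112) in mutants and -1.44 ± 0.15 (adjusted p = 8.24e-04) in wild type. Mitochondrial ribosome genes had medians of -0.34 in mutants and -0.39 in wild type over 73 genes, of which 8 and 22 were called lower, or 31 and 36 with the block. Assembly factors of the complexes had medians of -0.37 and -0.46 over 30 genes, with 3 and 13 called lower, or 13 and 18 with the block. Among 16 regulators of mitochondrial biogenesis, 11 were lower and 5 higher in each genotype, with medians of -0.20 in mutants and -0.43 in wild type. 1 was called lower in mutants and 7 in wild type, or 6 and 9 lower with the block, when 1 was also called higher in wild type. Ppargc1a, a coactivator of mitochondrial genes, had -0.65 ± 0.19 (adjusted p = 0.0672, or 0.00205 with the block) in mutants and -0.85 ± 0.19 (adjusted p = 0.0155) in wild type.

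9 genes of the chain or its partners fall outside the naming pattern, and 8 of them were lower in each genotype, with medians of -0.44 in mutants and -0.50 in wild type. 1 was called lower in mutants and 4 in wild type, or 5 lower and 1 higher in each with the block. Cycs, the cytochrome c gene, had 26.3 and 26.9 CPM in mutant cushions, against 36.1 and 36.1 CPM in mutant ventricles, and 16.5 and 16.4 CPM in wild type cushions, against 39.98 and 63.1 CPM in wild type ventricles. Cushion values were below ventricle values in both genotypes. The tissue difference was -0.44 ± 0.20 (adjusted p = 0.209) in mutants and -1.65 ± 0.20 (adjusted p = 0.00167) in wild type. Cyc1, the cytochrome c1 subunit of complex III, had -0.89 ± 0.20 (adjusted p = 0.0289) in mutants and -0.50 ± 0.20 (adjusted p = 0.105, or 0.00333 with the block) in wild type. Ndufa4l2, a relative of Ndufa4 known from cells at low oxygen, had 8.19 and 3.52 CPM in mutant cushions, against 2.49 and 2.59 CPM in mutant ventricles, and 5.87 and 3.56 CPM in wild type cushions, against 2.08 and 1.21 CPM in wild type ventricles, above the ventricles in each genotype as Cox4i2 was. Its log2 fold change was 1.20 ± 0.45 (adjusted p = 0.136, or 0.012 with the block) in mutants and 1.51 ± 0.47 (adjusted p = 0.0506, or 0.00177 with the block) in wild type.

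**Figure D4:**
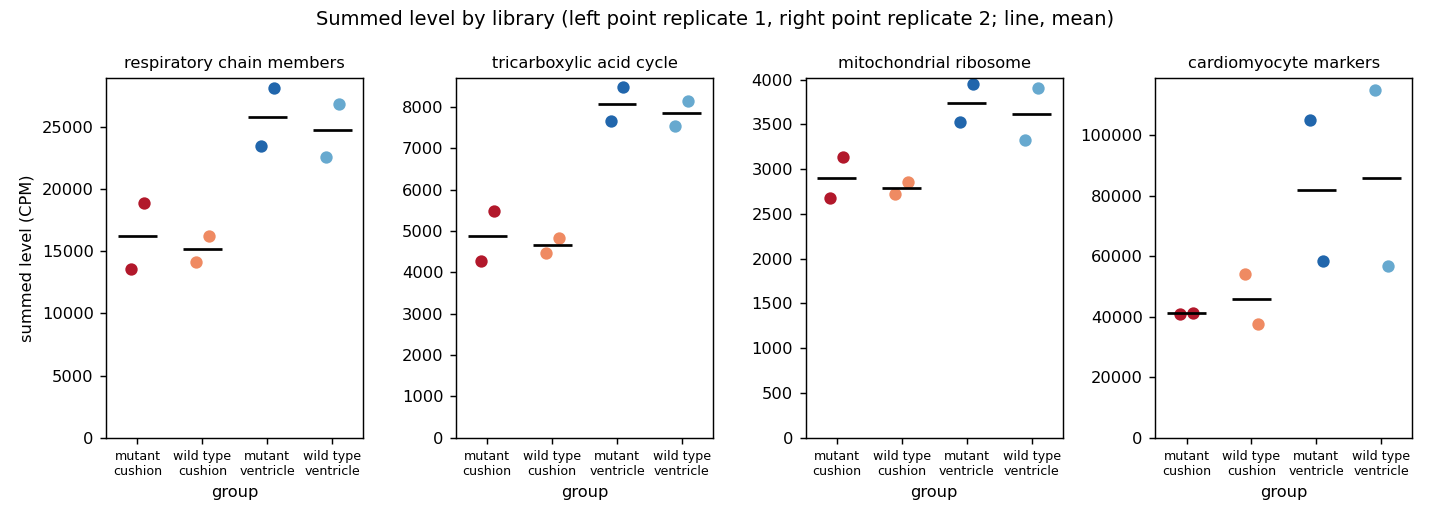
Summed level in CPM of the 82 members, of 18 tricarboxylic acid cycle genes, of 73 mitochondrial ribosome genes and of 20 cardiomyocyte markers, by library. Left points are replicate 1, right points replicate 2 and bars the mean of the 2. Cushion libraries lie below ventricle libraries in all 4 panels, and replicate 2 is the higher one for the members in every group.

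Markers of cell types moved with the tissue difference as well. Of the 20 cardiomyocyte markers, 18 were lower in mutant cushions and 17 in wild type cushions, with medians of -0.85 and -0.82, and 6 and 7 were called lower, or 13 and 12 lower and 1 higher in each with the block. Of the 16 cushion mesenchyme markers 15 were higher in both genotypes, with medians of 2.50 and 2.64. 9 were called higher in each, or 15 with the block. Over all tested symbols 9.42% were called in either direction in mutants and 23.1% in wild type, or 23.9% and 41.4% with the block. The 12 erythroid markers summed to between 863 and 3874 CPM in cushions, against 2529 to 8345 CPM in ventricles, and had medians of -1.16 in mutants and -1.54 in wild type, with 0 called in edgeR and 9 called lower with the block in each, beside 1 called higher in wild type. The 13 endothelial markers had medians of -0.49 and -0.02, the 10 epicardial markers -0.55 and -0.69, and the 12 leukocyte markers 0.74 and 0.63. The summed endothelial level was between 1531 and 1869 CPM in cushions, against 1936 to 2499.8 CPM in ventricles, the epicardial one 225 to 382, against 356 to 406 CPM, and the leukocyte one 104 to 211, against 92.6 to 128 CPM. No gene of these lists was at 0 in any library. Their part in the lower level of subunit genes was not tested.

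Setting mutant against wild type cushions asks whether subunit RNA differs with the genotype in the cushions, which the title of the study names. No member was called by edgeR, where 0% of all tested symbols passed. 50 of the 80 members were higher and 30 lower in mutant cushions, and the median log2 fold change of mutant over wild type was 0.05, against -0.01 over all tested symbols. At an unadjusted p under 0.05, 1 member passed, against 11.4% of all symbols, and with the block 19 of the 80 did, 9 higher and 10 lower, against 23.8%. With the block 0 members passed, against 0.863% of all symbols, with DESeq2 0 against 0.167%, and with limma-voom 0 against 0.0134%. The smallest adjusted p of a member was 0.435, or 0.0803 with the block. A p above the threshold does not show that levels were equal.

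The member with the smallest p was Ndufc1, which had 41.2 and 55.7 CPM in mutant cushions, against 37.6 and 34.9 CPM in wild type cushions. The mutant libraries were above the wild type ones, with a log2 fold change of 0.42 ± 0.17 (adjusted p = 0.435). Next among the higher members were Atp5g3 with 0.48 ± 0.21 (adjusted p = 0.439), Ndufc2 with 0.45 ± 0.20 (adjusted p = 0.442), Ndufb6 with 0.41 ± 0.19 (adjusted p = 0.449) and Atp5f1, of the peripheral stalk of complex V, with 0.41 ± 0.20 (adjusted p = 0.457). In Atp5g3 mutant cushion replicate 2 had 592 CPM, well above the other cushion libraries. Among the lower members, Ndufa7 had 40.4 and 41.5 CPM in mutant cushions, against 49.6 and 58.5 CPM in wild type cushions, with no overlap and -0.40 ± 0.20 (adjusted p = 0.456). It was followed by Ndufa11 with -0.63 ± 0.37 (adjusted p = 0.513), Atp5d, of the central stalk, with -0.38 ± 0.24 (adjusted p = 0.531), Ndufa13 with -0.42 ± 0.28 (adjusted p = 0.541) and Ndufs7 with -0.39 ± 0.27 (adjusted p = 0.545). Of the genes outside the pattern, Cycs had 26.3 and 26.9 CPM in mutant cushions, against 16.5 and 16.4 CPM in wild type cushions and 0.69 ± 0.20 (adjusted p = 0.435). The sign of the median depended on which library was left out. It was -0.17 when mutant cushion replicate 2 was dropped and -0.05 when replicate 1 of the wild type cushions was. Dropping mutant cushion replicate 1 gave 0.27, and dropping replicate 2 of the wild type cushions gave 0.17. Within replicate 1 the median was -0.04, and within replicate 2 it was 0.18.

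Other mitochondrial lists were compared between the genotypes in the same fits. In cushions the medians were 0.16 for the tricarboxylic acid cycle, 0.18 for carriers, 0.11 for assembly factors, 0.06 for regulators, 0.04 for the mitochondrial ribosome and 0.29 for the 9 genes outside the pattern. In ventricles they were 0.02, 0.05, -0.02, -0.07, 0.04 and 0.06. edgeR called no gene of these lists in either tissue, and the block called Slc25a13 in cushions, with 0.53 ± 0.15 (adjusted p = 0.435, or 0.0497 with the block). That call ended with the GC and length correction added to the block (adjusted p = 0.0633 in edgeR). Marker lists moved as well, with cushion medians of -0.09 for cardiomyocyte, -0.30 for cushion mesenchyme, -0.02 for endothelial, 0.53 for epicardial, 0.58 for erythroid and 0.50 for leukocyte markers, and ventricle medians of 0.07, -0.21, 0.26, 0.21, 0.22 and 0.34. With the block 2 cushion mesenchyme markers were called lower and 1 epicardial marker higher in mutant cushions. With the correction added to the block no cushion mesenchyme marker was called there, and their smallest adjusted p in edgeR was 0.133. Of the epicardial markers 1 was then called higher. The part of the markers in the values of the members was not tested.

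In ventricles, where the same genotypes are compared in the other tissue, edgeR called 0 members, against 0% of all symbols. 51 members were higher and 29 lower in mutants, with a median of 0.08, against -0.01 over all symbols. At an unadjusted p under 0.05 there were 0, against 2.29% of all symbols, and 8 of the 80 with the block, all higher, against 7.28%. With the block, with DESeq2 and with limma-voom there were 0 adjusted calls, against 0.00669%, 0.00669% and 0% of all symbols. Ndufv1 had 228 and 315 CPM in mutant ventricles, against 208 and 223 CPM in wild type ventricles, with a log2 fold change of 0.33 ± 0.18 (adjusted p = 0.998). The other smallest p-values among higher members belonged to Ndufv3, an accessory subunit gene of complex I, with 0.35 ± 0.20 (adjusted p = 0.998), Cox4i2 with 0.74 ± 0.46 (adjusted p = 0.998), Cox4i1 with 0.38 ± 0.24 (adjusted p = 0.998) and Ndufa7 with 0.28 ± 0.20 (adjusted p = 0.998). Lower members were led by Atp5j with -0.24 ± 0.15 (adjusted p = 0.998), Ndufb6 with -0.26 ± 0.19 (adjusted p = 0.998), Ndufc1 with -0.17 ± 0.17 (adjusted p = 0.998), Uqcrb with -0.21 ± 0.24 (adjusted p = 0.998) and Atp5s, a coupling factor gene of complex V, with -0.14 ± 0.17 (adjusted p = 0.998). Mutant ventricle replicate 2 had the highest value of Ndufv1, Ndufa7 and Cox4i1 among the ventricle libraries.

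The difference of the genotype effect between the tissues was tested as an interaction. edgeR called 0 members, against 0% of all symbols, and the block, DESeq2 and limma-voom called 0 as well, against 0% in each. 3 members had an unadjusted p under 0.05, against 11.9% of all symbols, and with the block 30 of the 80 had, 9 above 0 and 21 below, against 24.1%. 39 members were above 0 and 41 below, with a median of -0.03. The 3 without the block were Ndufc1 with 0.59 ± 0.24 (adjusted p = 0.415), Ndufb6 with 0.67 ± 0.27 (adjusted p = 0.415) and Ndufa7 with -0.68 ± 0.28 (adjusted p = 0.415). Next came Ndufc2, Atp5g3 and Atp5j above 0, with 0.61, 0.65 and 0.43, and Ndufv1, Ndufs6, Ndufv3 and Cox4i1 below 0, with -0.55, -0.62, -0.55 and -0.64. The smallest adjusted p was 0.415, or 0.0852 with the block. Without mutant cushion replicate 2 the median was -0.28. The interaction values of the members ran with the GC content of the transcript, as given below.

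The genotype difference of a member ran with the GC content of its transcript. Across the 80 members, Spearman's rho between transcript GC content and log2 fold change was -0.59 in cushions and 0.62 in ventricles, and over all symbols it was -0.62 and 0.47. Genes share libraries and are not replicates. The 40 members with a GC content under 52.01% had a median of 0.19 in cushions and -0.03 in ventricles, and the 40 above had -0.10 and 0.22. With the block and an offset for GC content and transcript length in the fit, the medians were 0.03 and 0.03 below the limit and 0.06 and 0.09 above it. Of the genes named, Ndufc1 then had a cushion value of 0.15 and Ndufa7 one of -0.26. The interaction had a rho of -0.62 with GC content over the members and -0.67 over all symbols. Its median was 0.19 in the 40 members below the limit and -0.40 in the 40 above. With the block and the correction it was -0.01 and -0.09. The tissue difference ran with GC content too, with a rho of -0.36 in mutants and 0.53 in wild type. With the block and the correction this rho was 0.08 and 0.07, and the medians of the tissue difference were -0.55 and -0.53. 67 members were then called lower in mutants and 62 in wild type. In wild type the median tissue difference was -0.40 in the 40 members above 52.01% and -0.75 in the 40 below. With the block and the correction these 2 medians were -0.50 and -0.56. In mutants they were -0.68 above and -0.62 below, or -0.53 and -0.57 with the block and the correction. The rho of the members with transcript length was -0.12 in mutants and -0.13 in wild type with the block alone. With the correction added it was -0.52 and -0.27, against -0.02 in both over all symbols. So the corrected values of the members ran with length.

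**Figure D5:**
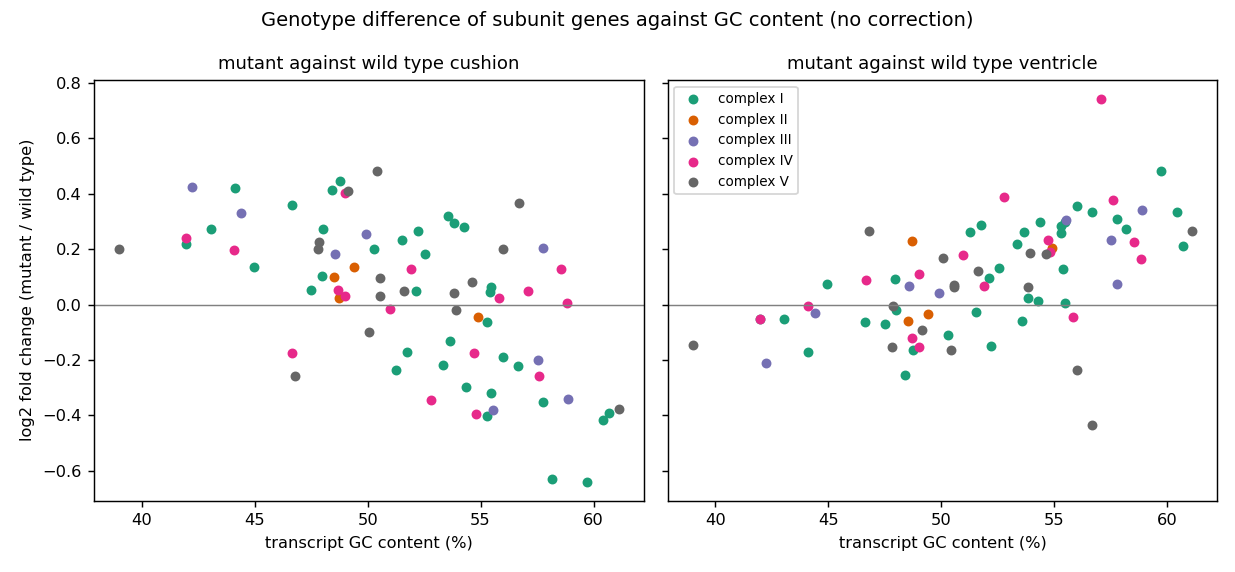
Log2 fold change of mutant over wild type of 79 subunit genes against the GC content of the transcript in percent, in cushions (left) and ventricles (right), colored by complex. The points slope downward in cushions and upward in ventricles.

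Subunit genes also differed between the 2 libraries of a group. Of the 80 tested members, 75 were higher in replicate 2 than in replicate 1 in mutant cushions, 77 in wild type cushions, 76 in mutant ventricles and 77 in wild type ventricles, with median log2 differences of 0.40, 0.20, 0.33 and 0.24. The medians over all symbols were between -0.03 and 0.04. Marker lists differed between replicate numbers too. Erythroid markers summed to 998 CPM in replicate 2 and 3874 CPM in replicate 1 of mutant cushions, 863 and 1984 CPM in wild type cushions, 2881 and 8345 CPM in mutant ventricles and 2529 and 7163 CPM in wild type ventricles. Cushion mesenchyme markers were also lower in replicate 2 in all 4 groups, with 10285 and 17656 CPM in mutant cushions and 11159 and 21744 CPM in wild type cushions. Cardiomyocyte markers summed to 58493 CPM in replicate 2 and 104936 CPM in replicate 1 of mutant ventricles and to 56638 and 114864 CPM in wild type ventricles. In wild type cushions replicate 2 was lower too, with 37492 and 54135 CPM. In mutant cushions it was not, with 41306.5 CPM in replicate 2 and 40857 CPM in replicate 1. The replicate medians of the members were smaller in size than those of the tissue difference and larger than those of the genotype difference. The labels do not say what the replicate number marks, and its part in the results was tested only through the block.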

How the data were processed

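Total RNA was sequenced after removal of ribosomal RNA with a stranded kit, per the labels' protocols. Per the submitters' processing notes, Bowtie 0.12.7 and the mouse build mm9 were used. How reads were counted, with which annotation and strand setting, is not given in the sources used here. Per gene row the authors deposited raw counts, which were used unchanged. The 8 deposited tables hold the same content, so 1 was read, with each column assigned by title. Of several rows with 1 symbol, that with the most counts was used, which affected 6 members.

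edgeR 4.0.16 (R 4.3.3) was used for tests, with TMM scaling, its filter on low counts by group, and a robust quasi-likelihood fit of the 4 groups. Tests were two-sided, with Benjamini-Hochberg adjustment over 14940 symbols and a threshold of 0.05. The tested symbols held 99.97% of counts. No test was made over the members as a set. CPM are counts over the scaled library size, and levels per kilobase divide by a principal transcript of GENCODE vM21, which also gave GC content. Alternatives were DESeq2 1.42.0, limma-voom 3.58.1, other scaling and filters, a correction for GC content and length, summed rows and leaving out each library. The edgeR fits with and without the block were tested on simulated data. Shares of isoforms used exact permutation tests (SciPy 1.17.1).

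Whether the libraries of 1 group are from different embryos is not stated, so p-values cover only the spread between these samples, possibly a technical one. In every group both libraries differed beyond sampling noise, by a chi-square of 45.5 to 118.1 per degree of freedom. Deviations of same-numbered libraries from their group means correlated in all 6 pairs of groups, with r from 0.341 to 0.522 across genes. The replicate number was therefore taken as a pairing seen in the data, not stated by the design. A fit with it as a block is given where it changes a call. Across the members alone, r was -0.254 between mutant cushions and mutant ventricles and -0.032 between mutant and wild type ventricles. In the other pairs of groups it ran from 0.093 to 0.506.

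Named genes are Klf2, the 5 members with the smallest p in each direction of a comparison, the 3 highest levels per kilobase in each complex, the isoform families, core and Sdh subunits, members that failed the filter, and up to 4 genes of each list with the smallest p. Others were named after their values were seen, and 1 gene is not reported here. The members and lists were chosen with earlier results of these data known. Shared 50-base words and opposite-strand overlaps were counted in GENCODE vM21, where 5 members share over 50% of their words and 15 overlap another gene on the opposite strand over more than 10% of the transcript.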

Additional observations from a re-analysis of the deposited data

How the results depend on the processing

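The direction of the median tissue difference was the same under every alternative run, with medians between -0.91 and -0.44 in mutants and -0.73 and -0.49 in wild type when 1 library was left out. The number of members called depended on the setting. In mutants, where 16 were called, it was 27 without the filter on low counts, 45 with DESeq2, 70 with the replicate block, 68 with the block and the GC and length correction, 38 with that correction alone and 2 in a fit of only the groups compared, and between 0 and 35 when 1 library was left out. In wild type, where 35 were called, it was 58 with the block, 64 with the block and the correction, and between 7 and 43 when 1 library was left out. The causes were not tested. For the genotype comparisons no alternative called a member, and leaving out 1 library gave medians between -0.17 and 0.27 in cushions, -0.10 and 0.26 in ventricles and -0.28 and 0.19 for the interaction. The isoform shares differed by between 3.83 and 5.76 percentage points for Cox6a2, -3.40 and -2.81 for Cox8b, 1.99 and 2.76 for Cox4i2 and -0.147 and 1.91 for Cox7a1 when 1 library was left out, and with 4 against 3 libraries the smallest adjusted exact p was above 0.05 in many of these, 0.0762 for Cox6a2 and 0.0571 for Cox8b and Cox4i2.

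Some single values near 0 changed sign. Atp5s in ventricles, -0.14 between genotypes, was 0.0316 with the correction and 0.0324 with the correction and the block, and Atp5g2 between mutant tissues, -0.04, was 0.14 with both and 0.18 with the correction alone. When 1 library was left out, the tissue value was between -0.44 and 0.26 for Atp5g2 and -0.74 and 0.0168 for Cox6a2 in mutants, and between -0.10 and 0.67 for Cox6a2, -0.17 and 0.50 for Ndufa11, -0.41 and 0.0678 for Ndufs8 and -0.32 and 0.0395 for Cox4i1 in wild type. The genotype value in ventricles was between -0.25 and 0.00354 for Atp5s, -0.0498 and 0.56 for Ndufa7, -0.47 and 0.0422 for Ndufb6 and -0.44 and 0.11 for Uqcrb. Fits that leave a group with 1 library assume that it varies like the other groups. Depth limits Cox4i2, Cox8b, Cox6b2, Atp5g2 and Atp5l, which rest on few reads in some or all libraries, and the 2 members that failed the filter. Atp5g2 had 10 to 41 reads in a library and Atp5l 20 to 78.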
